A study of Homo sapiens with 4 samples.

Results

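The CD-numbered leukocyte surface molecules were the genes whose name on the array is CD followed by digits and at most a letter and a further digit, without CD14 and CD74. The array carried 80 such genes, and 68 of them, on 87 probes, had a quality weight above 0 on all 4 arrays and were tested, among 17938 tested genes with a symbol. Another 11 names that fit the pattern were accession numbers of expressed sequence tags and were set aside. RNA was taken from THP1, a human monocytic leukemia line that carries the MLL-AF9 fusion. MLL-AF9 was knocked down with siRNA-A or siRNA-B, both directed at its fusion point, and control treatments were the non-targeting control siRNA-1 and control siRNA-2. Cells were transfected on days 0, 3 and 6 and harvested on day 8, in medium with 10% serum until day 6 and 0.5% serum from then on. RNA of 5 experiments was pooled on each single-colour Agilent array, giving 2 arrays for knockdown and 2 for control treatments. The arrays shared 1 slide. Because siRNA-B took position 1, siRNA-A position 2 and the control treatments positions 3 and 4, effects of treatment and of slide position cannot be told apart.

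CD numbers are given to cell surface molecules that sets of monoclonal antibodies recognise, and cytometry uses them to tell blood cell lineages and stages of maturation apart. As monocytes mature into macrophages or dendritic cells, they change their sets of scavenger receptors, lectins, costimulatory molecules and Fc receptors, while molecules of stem cells are lost. Myeloid leukemias with an MLL fusion are arrested at an early myeloid stage, and THP1 cells are known to mature further along the monocyte lineage when they are stimulated.

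Reported two-sided p are from limma on the log2 of the deposited intensities, genes with an unadjusted p under 0.005 were called, and adjusted p are Benjamini-Hochberg values over all 26219 probes. Where a gene had more than 1 probe, the brightest is reported. The p reflect the spread between these pooled arrays, and with 2 arrays a group an exact permutation test (two-sided) cannot go below p = 0.333. The targeted transcript was checked first. On the brightest MLLT3 probe, which lies in the gene of the AF9 part, the log2 intensity was 6.82 with siRNA-A, 6.87 with siRNA-B, 7.59 with control siRNA-1 and 7.61 with control siRNA-2, which is a log2FC (log2 fold change) of -0.76 ± 0.11 (SE) at an adjusted p of 0.0639 in limma. Neither knockdown array reached the lower of the controls, and the other MLLT3 probe gave -0.63. The brightest MLL probe gave 10.55 with siRNA-A, 10.64 with siRNA-B, 10.95 with control siRNA-1 and 11.08 with control siRNA-2, a log2 fold change of -0.41 (adjusted p = 0.403 in limma). The 3 other MLL probes gave -0.08, -0.03 and 0.05 with overlapping groups. They lie further downstream in the gene, from position 118361998 on the plus strand of chromosome 11 (hg19), while the brightest probe starts at 118348856. They therefore need not read the same transcripts as the brightest probe. On which side of the fusion point each probe lies, and whether these probes also detect the unrearranged genes, was not tested.

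After MLL-AF9 knockdown, 2 of the 68 CD-numbered genes were called higher, CD209 and CD101, where 0.630% of all genes were called higher. None was called lower, where 0.702% of all genes were. At an unadjusted p under 0.05 in limma, 7 CD genes were higher, against 3.26% of all genes, and 3 were lower, against 4.74%. No CD gene had an adjusted p under 0.05. Both knockdown arrays lay above both control arrays for 17 CD genes (25.0%), where this held for 15.0% of all genes, and below them for 13 (19.1%), where this held for 21.2%. The median log2 fold change of the 68 genes was -0.0010, and that of all genes was -0.02. A log2 fold change within 0.15 of 0, a limit chosen after the values were seen, was found for 33 of the 68 genes.

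**Figure D1:**
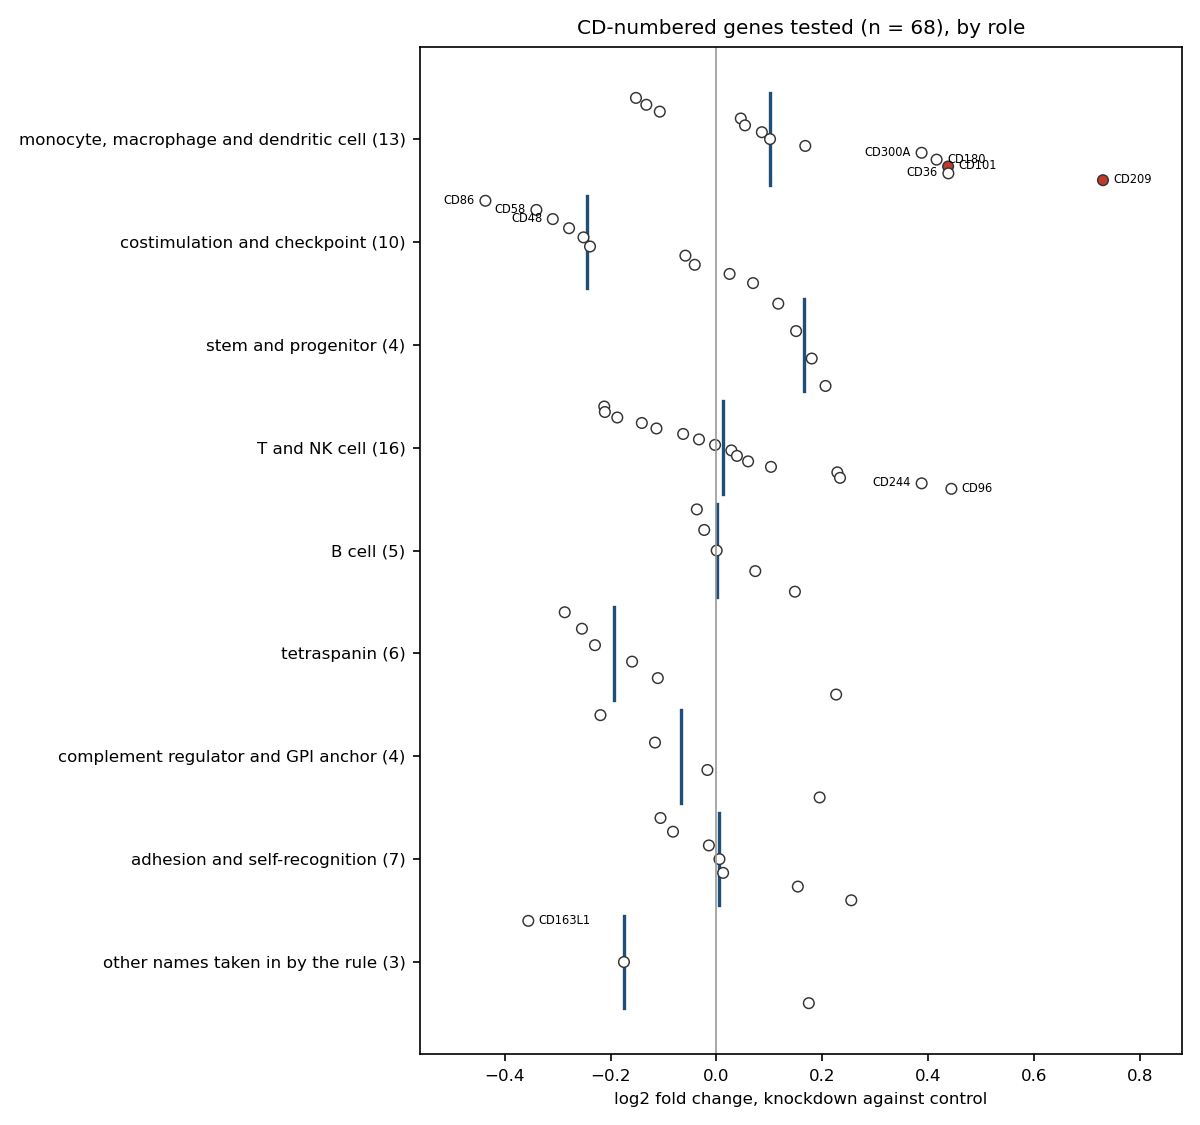
Log2 fold change of knockdown against control arrays for each of the 68 tested CD-numbered genes (1 point a gene, x axis), in rows by role with the number of genes in parentheses. Filled points are called genes, and the vertical bar is the median of the row. CD209 stands farthest to the right at 0.73 and CD86 farthest to the left at -0.44.

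Molecules of monocytes, macrophages and dendritic cells held both called genes. Of 20 listed genes 13 were tested, 10 of them with a log2 fold change above 0, and the median was 0.10 (0.03 for siRNA-A alone and 0.22 for siRNA-B alone). CD209, also known as DC-SIGN, is a C-type lectin of dendritic cells and some macrophages that binds mannose-rich glycans of pathogens. Its brightest probe gave log2 intensities of 8.32 with siRNA-A, 8.70 with siRNA-B, 7.93 with control siRNA-1 and 7.63 with control siRNA-2. Both knockdown arrays lay above both control arrays, with a log2 fold change of 0.73 (SE 0.16, unadjusted p = 0.00150, adjusted p = 0.234 in limma), or 1.66-fold. The probe lies on the minus strand of chromosome 19 at 7805348 to 7805407 of hg19. The 2 other CD209 probes were well above background on all 4 arrays too, and their log2 fold changes were 0.44 and 0.40.

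CD101 is an immunoglobulin superfamily protein of monocytes, dendritic cells and activated T cells. It gave 6.11 with siRNA-A, 6.02 with siRNA-B, 5.55 with control siRNA-1 and 5.70 with control siRNA-2. The knockdown arrays were again both higher, by 0.44 (SE 0.12, unadjusted p = 0.00452, adjusted p = 0.363 in limma). The CD101 spot was well above background on all 4 arrays but dim, since the dimmest probe well above background on each array lay between 5.04 and 5.39. The log2 fold change of CD101 was 0.89 with the background-subtracted signal scaled to its 75th percentile, 0.86 with the unscaled one, 0.25 after normexp and quantile normalization together, 0.41 after quantile normalization alone and 0.44 with an intensity trend in the variance prior, and none of these passed the threshold. Of 13 alternatives 4 kept the CD101 call. For CD209 the call was lost with the background-subtracted signal (0.91 scaled, 0.88 unscaled). When each array was left out in turn, neither gene was called. CD209 was then at 0.92 without siRNA-A, 0.54 without siRNA-B, 0.88 without control siRNA-1 and 0.58 without control siRNA-2. CD101 was at 0.39 without siRNA-A, 0.48 without siRNA-B, 0.37 without control siRNA-1 and 0.51 without control siRNA-2.

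**Figure D2:**
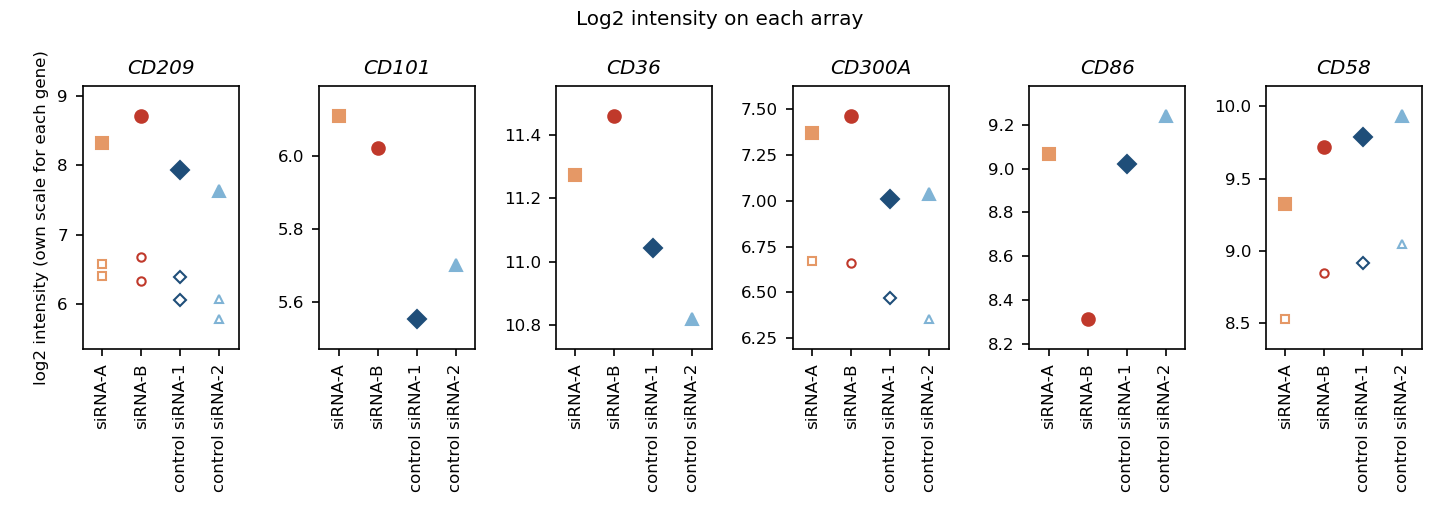
Log2 intensity (y axis, own scale for each gene) on each array (x axis) for 6 CD genes. Filled symbols are the brightest probe and open symbols other probes of the same gene. For CD209, CD101, CD36 and CD300A both knockdown arrays lie above both control arrays, while for CD86 only the siRNA-B array, at 8.32, stands apart.

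The 250 bases before the start of the called genes are shown because these are the members that passed the threshold. They are RefSeq promoters of build GRCh38.p14, read 5′ to 3′ on the strand of the gene, and a RefSeq promoter was found for 46 of the 68 tested genes. Letters in capitals mark a match, on either strand, to TGANTCA (AP-1), TTGCNNAA (C/EBP) or GAGGAA (PU.1), motifs of factors that act in myeloid cells. The CD101 window is chr1:117001510-117001759 on the plus strand, and the CD209 window is chr19:7747535-7747784 on the minus strand.
CD101: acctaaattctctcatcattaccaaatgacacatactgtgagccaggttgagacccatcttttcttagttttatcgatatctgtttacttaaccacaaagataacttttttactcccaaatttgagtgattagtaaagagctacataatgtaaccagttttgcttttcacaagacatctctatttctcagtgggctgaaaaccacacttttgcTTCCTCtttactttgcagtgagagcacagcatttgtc
CD209: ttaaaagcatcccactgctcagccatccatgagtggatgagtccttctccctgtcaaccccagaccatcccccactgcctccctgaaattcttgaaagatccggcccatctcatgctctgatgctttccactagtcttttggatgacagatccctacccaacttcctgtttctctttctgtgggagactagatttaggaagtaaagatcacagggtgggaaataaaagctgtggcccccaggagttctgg
The CD101 window held 1 match, to GAGGAA on the opposite strand, 37 to 32 bases before the start. The CD209 window held no match to these letters. Of 35116 RefSeq promoter windows of the same length, 23.6% held GAGGAA, 6.57% TGANTCA and 9.05% TTGCNNAA.

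Further genes of this group were not called. CD36, a scavenger receptor that takes up oxidised lipoprotein, gave 11.27 with siRNA-A, 11.46 with siRNA-B, 11.04 with control siRNA-1 and 10.82 with control siRNA-2. Its log2 fold change was 0.44 (SE 0.13, adjusted p = 0.434 in limma), and the 10 identical spots of its probe ranged from 0.35 to 0.60. CD300A, an inhibitory receptor of myeloid cells, gave 7.37 with siRNA-A, 7.46 with siRNA-B, 7.01 with control siRNA-1 and 7.04 with control siRNA-2. The difference was 0.39 (adjusted p = 0.414 in limma), and its other probe gave 0.25. CD300A is outside the rule for named genes and was chosen after its values were seen, because it passed the threshold after quantile normalization, after cyclic loess normalization and with an intensity trend in the variance prior. CD180, a Toll-like receptor homolog that pairs with LY86, gave 6.27 with siRNA-A, 6.21 with siRNA-B, 5.64 with control siRNA-1 and 6.00 with control siRNA-2, a log2 fold change of 0.42 (adjusted p = 0.501 in limma). CD180 was at 0.88 with the scaled background-subtracted signal, 0.24 without control siRNA-1 and 0.59 without control siRNA-2.

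CD33, a sialic acid binding lectin of myeloid cells, gave 13.06 with siRNA-A and 13.34 with siRNA-B, against 13.29 and 13.32 for the controls, so that the groups overlapped. The log2 fold change was -0.13 for CD4, which monocytes carry as well as helper T cells, and -0.15 for CD68, a lysosomal protein of macrophages. It was 0.17 for CD93, a lectin-like receptor of monocytes and endothelium, and 0.09 for CD300E, an activating receptor of monocytes. None of these passed the threshold. The hemoglobin scavenger receptor CD163 and the lipid antigen presenting molecules CD1A, CD1B, CD1C, CD1D and CD1E had a weight of 0 on all 4 arrays and were well above background on none, as was CD207. The same held for CD80, CD22, CD72, CD226 and CD5L, which completes the 12 genes of the array that were not tested.

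Costimulatory and checkpoint molecules of antigen-presenting cells held no called gene. Of 10 tested genes 8 had a log2 fold change below 0, and the median was -0.25 (-0.25 for siRNA-A alone, -0.12 for siRNA-B alone). Only 6 of the 10 were well above background on all 4 arrays, so that dim genes enter this tally and median. CD86, a ligand of CD28 and CTLA4, gave 9.07 with siRNA-A, 8.32 with siRNA-B, 9.02 with control siRNA-1 and 9.24 with control siRNA-2. The siRNA-A array lay between the controls, and only the siRNA-B array was lower. The log2 fold change of -0.44 (SE 0.22, adjusted p = 0.685 in limma) therefore rested on siRNA-B, and it was -0.06 without that array and -0.81 without siRNA-A. CD58, the ligand of CD2, gave 9.32 with siRNA-A, 9.72 with siRNA-B, 9.79 with control siRNA-1 and 9.93 with control siRNA-2, a log2 fold change of -0.34 (adjusted p = 0.616 in limma). Leaving out siRNA-A moved it to -0.14 and leaving out siRNA-B to -0.54. The other probe gave -0.29. CD48, the ligand of CD244, was well above background on both control arrays and on neither knockdown array. Its log2 intensity was 5.25 with siRNA-A, 5.36 with siRNA-B, 5.70 with control siRNA-1 and 5.52 with control siRNA-2. On the deposited intensities the controls were 1.22-fold higher, taking for each knockdown array the higher of its own value and the dimmest probe well above background. This is not a lower limit under other processing, and CD48 was not called (adjusted p = 0.571 in limma). The fitted log2 fold change of -0.31 became -1.17 once background was subtracted and the arrays scaled, -1.20 if left unscaled, and -0.19 after normexp and quantile normalization.

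CD40, the receptor through which T cells activate antigen-presenting cells, gave 7.26 with siRNA-A, 7.49 with siRNA-B, 7.57 with control siRNA-1 and 7.66 with control siRNA-2. All 10 identical spots of its probe were lower after knockdown, between -0.42 and -0.10, and the log2 fold change of -0.24 had an adjusted p of 0.698 in limma. Leaving out siRNA-A gave -0.12 and leaving out siRNA-B gave -0.35, while the other probe gave -0.10 with overlapping groups. CD83, a marker of mature dendritic cells, overlapped between the groups, at 11.24 with siRNA-A and 11.53 with siRNA-B against 11.42 and 11.43 after the control treatments.

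Of 6 listed tetraspanins, membrane proteins that organise receptors into microdomains, 4 had both knockdown arrays under both controls, as did 21.2% of all genes, and none was called. CD53 was at 0.23 (0.11 for siRNA-A alone, 0.35 for siRNA-B alone), with siRNA-A at 12.36 and the nearer control also at 12.36. CD37, a tetraspanin listed with the B cell genes, had overlapping groups and a log2 fold change of 0.00050. CD53 and CD37 do not meet the rule for named genes and were picked with their values known. CD81 gave 14.54 with siRNA-A, 14.27 with siRNA-B, 14.65 with control siRNA-1 and 14.74 with control siRNA-2, a log2 fold change of -0.29 (adjusted p = 0.631 in limma), with -0.17 on its other probe. Without siRNA-A it was -0.43, and without siRNA-B -0.15. CD151 was at -0.25 and CD63, a protein of late endosomes, at -0.11. CD9 was at -0.16 with overlapping groups. The median of this list was -0.19, at -0.27 for siRNA-A alone and -0.05 for siRNA-B alone.

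**Figure D3:**
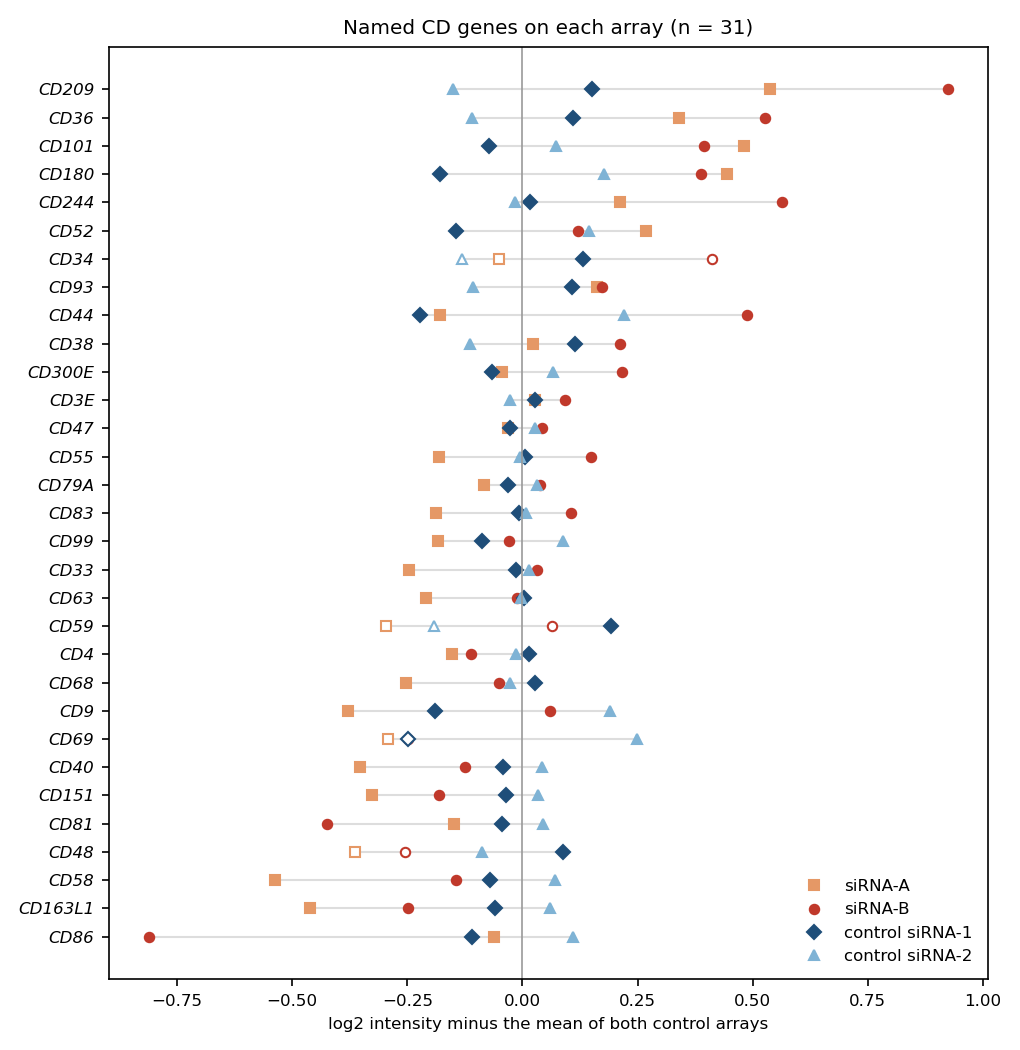
Log2 intensity of 31 named CD genes on each array minus the mean of both control arrays (x axis), with genes ordered by log2 fold change (y axis). Open symbols mark an array on which the probe was not well above background. CD209, CD36, CD101, CD180, CD244 and CD93 have both knockdown symbols to the right of both control symbols.

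Stem and progenitor cell molecules showed no called gene. The 3 that were well above background on all arrays had log2 fold changes between 0.12 and 0.21. The median of all 4 tested genes was 0.17, at 0.03 for siRNA-A alone and 0.25 for siRNA-B alone. CD34, the sialomucin of hematopoietic stem cells, was well above background on the control siRNA-1 array alone, at 5.39. Yet it was brighter with siRNA-B, at 5.67, and gave 5.21 with siRNA-A and 5.13 with control siRNA-2. The groups overlapped, with a log2 fold change of 0.18. The dimmest probe well above background lay higher on the siRNA-A (5.20) and siRNA-B (5.39) arrays than on control siRNA-1 (5.04) and control siRNA-2 (5.13). For dim genes the flag alone therefore shows no loss after knockdown. CD38, an enzyme that turns over NAD and is gained on progenitors, gave 7.92 with siRNA-A, 8.11 with siRNA-B, 8.02 with control siRNA-1 and 7.79 with control siRNA-2, so that the groups overlapped. The CD38 log2 fold change was 0.0025 without control siRNA-2 and 0.23 without control siRNA-1. CD164, a sialomucin of progenitors that was picked with its values known, gave 0.15 on its brightest probe and -0.35 on its other probe. The brightest probe was at 0.03 for siRNA-A alone and at 0.27 for siRNA-B alone.

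Among complement regulators and GPI-anchored proteins, CD55 was at -0.02 and CD52 at 0.20, both with overlapping groups. CD59 was well above background on the control siRNA-1 array alone, at 5.55. It gave 5.07 with siRNA-A, 5.43 with siRNA-B and 5.17 with control siRNA-2, so that its groups overlapped too. CD46, outside the rule for named genes and chosen after its values were seen, was at -0.22 with both knockdown arrays under both controls, and was not called. For siRNA-A alone CD46 was at -0.30, and for siRNA-B alone at -0.13. Among adhesion and self-recognition molecules, CD47, which restrains phagocytosis through SIRPA, was at 0.01. CD99 was at -0.11. CD44, the hyaluronan receptor, gave 8.81 with siRNA-A, 9.48 with siRNA-B, 8.77 with control siRNA-1 and 9.21 with control siRNA-2, so that the spread within each group was larger than the difference of 0.15 between them. CD163L1, a scavenger receptor related to CD163, gave 10.73 with siRNA-A, 10.94 with siRNA-B, 11.13 with control siRNA-1 and 11.25 with control siRNA-2. This log2 fold change of -0.36 (SE 0.12, adjusted p = 0.520 in limma) was not called.

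Genes of lymphoid lineages held no called gene, and many lay near background. Of 16 tested T and NK cell genes 10 were well above background on all 4 arrays, and the median log2 fold change was 0.01. CD3E, a chain of the T cell receptor complex, lay between 5.70 and 5.82 on the 4 arrays. CD69, an activation marker of lymphocytes, was well above background on the control siRNA-2 array alone, at 5.58. It gave 5.04 with siRNA-A, 5.09 with siRNA-B and 5.09 with control siRNA-1. CD244, a receptor of NK cells and monocytes, gave 10.10 with siRNA-A, 10.45 with siRNA-B, 9.90 with control siRNA-1 and 9.87 with control siRNA-2. Its log2 fold change was 0.39 (adjusted p = 0.529 in limma), with 0.16 on its other probe. With siRNA-A left out it was 0.56, and with siRNA-B left out 0.21. CD96, outside the rule for named genes and chosen after its values were seen, was well above background on the siRNA-A array alone, at 5.67, and no fold is given for it. Of 5 tested B cell genes none was called. CD79A, a chain of the B cell receptor, was at -0.02.

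Markers of cell lineages were detected as follows. Of 10 listed monocyte or macrophage markers 8 were tested and all 8 were well above background on all 4 arrays. None of the 8 was called, 5 had a log2 fold change below 0 and the median was -0.12 (-0.11 for siRNA-A alone, -0.01 for siRNA-B alone). Of 8 T cell markers 6 were well above background on all arrays, of 6 B cell markers 3, of 5 NK cell markers 2 and of 4 stem or progenitor markers 1. The dendritic cell markers CD83 and CD209 were well above background on all arrays, and the other 5 of that list had a weight of 0. The erythroid marker HBB was well above background on the siRNA-B array alone, at 5.68 against 5.44 with siRNA-A, 5.16 with control siRNA-1 and 5.13 with control siRNA-2. Its part in the values of the CD genes was not tested.

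Monocyte lineage antigens with a CD number but another gene name were read beside them. Of 13 tested, none was called, 10 had a log2 fold change above 0 and the median was 0.13 (0.02 for siRNA-A alone and 0.21 for siRNA-B alone). ITGAX, the integrin chain CD11c of dendritic cells and macrophages, gave 10.48 with siRNA-A, 10.99 with siRNA-B, 10.28 with control siRNA-1 and 9.97 with control siRNA-2, a log2 fold change of 0.62 (adjusted p = 0.424 in limma). Its other probe gave 0.27 with overlapping groups. CSF2RA, a receptor chain for GM-CSF, was at 0.38 (adjusted p = 0.440 in limma). FCGR2A, an Fc receptor, was at -0.27 with overlapping groups (-0.51 for siRNA-A alone, -0.03 for siRNA-B alone). Its other probe was at -0.49 (unadjusted p = 0.00561 in limma). IL3RA, the IL-3 receptor chain, was at -0.22 with overlapping groups and opposite signs for siRNA-A (-0.53) and siRNA-B (0.09). These 4 were singled out after their values were seen. Of 15 tested ligands and signalling partners of the CD genes none was called, and the median was 0.05. LY86, the partner of CD180, was at 0.09 with overlapping groups (-0.15 for siRNA-A alone, 0.33 for siRNA-B alone), and SIRPA, the receptor of CD47, at 0.05.

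The knockdown arrays were also compared with each other. The median absolute log2 difference over the 68 CD genes was 0.19 between siRNA-B and siRNA-A and 0.09 between the controls, against 0.14 and 0.11 over all genes. The siRNA-B array was above the siRNA-A array for 51 of the 68 genes and for 63.9% of all genes, and the median difference was 0.14 for the CD genes and 0.07 for all genes, in data that were not normalized. Among 17 CD genes with several tested probes, the probes had log2 fold changes of both signs in 8 and of one sign in 9, CD209, CD300A, CD244, CD58 and CD81 being among the latter.

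**Figure D4:**
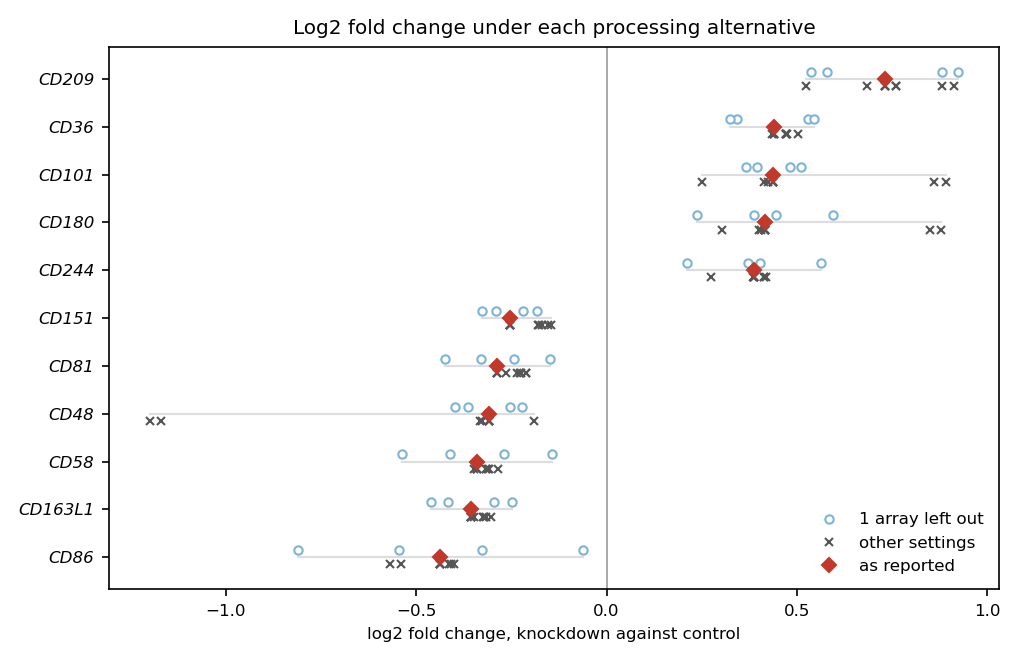
Log2 fold change (x axis) of 11 CD genes (y axis) as reported (diamonds), with 1 array left out (circles) and under the other processing alternatives (crosses). CD209 ranges from 0.52 to 0.92 and CD86 from -0.81 to -0.06, and no gene shown crosses 0.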

How the data were processed

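Single-colour arrays were run by a service laboratory. Spots were extracted with Agilent Feature Extraction 10.5.1.1, as the submitters' processing notes state, and the authors deposited 1 intensity a spot, with no background correction and no normalization. They also deposited a quality weight, a score of 0, 0.5 or 1 whose derivation is not given in the sources used here. After removal of control spots, 33323 of 43118 spots were kept because no array gave them a weight of 0, and they made up 26219 probes. Identical spots were averaged on the log2 scale, and limma 3.58.1 (R 4.3.3) was run with these weights as spot weights. The scanner output has 61 columns, of which 51 stayed unused here. A probe was taken as well above background on an array when the scanner software flagged at least 0.5 of its spots so.

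Members and lists were chosen with earlier results of these data known, and the promoter motifs after the called genes were known. Named genes are every CD gene called, the 5 largest rises and 5 largest falls among genes with both knockdown arrays beyond both controls and well above background on both arrays of a group, and 25 genes fixed by name, of which CD1D and CD163 were not tested. Some listed genes are not reported here. Alternatives were other normalizations (a 75th percentile scaling, quantile, cyclic loess, normexp with an offset of 50 followed by quantile), no weights, a filter on dim probes, a variance trend, all probes of a gene, other call rules and each array left out. The code was first tested on simulated arrays with known changes. The number of arrays limits the precision.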

Additional observations from a re-analysis of the deposited data

How the results depend on the processing

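No paired analysis was possible because the knockdown and control arrays share no replicate number. The count of CD genes called higher, 2 as reported, was 0 with the background-subtracted signal scaled or unscaled, 1 after normexp and quantile normalization, 3 after cyclic loess normalization (with CD300A), 2 after quantile normalization and with the variance trend (CD209 and CD300A, without CD101), 0 at an adjusted p under 0.05, 7 at an unadjusted p under 0.05, and 0 to 1 with 1 array left out (1, CD96, without siRNA-B), in fits where the single array left in a group is taken to have the spread of the other group. The count called lower, 0 as reported, was 3 at an unadjusted p under 0.05 and 0 otherwise. The median log2 fold change ranged from -0.067 to 0.073, and no scaling moved the median of all genes by over 0.1. Of 400 values of named genes under the alternatives, 29 changed sign, all of genes not called, and 15, of CD209 and CD101, kept their direction without a call; the cause was not tested. Signs changed with the scaled background-subtracted signal CD3E at -0.12, CD47 at -0.00055, CD55 at 0.045 and CD79A at 0.067, with the unscaled background-subtracted signal CD300E at -0.013, CD3E at -0.15, CD47 at -0.031, CD55 at 0.014 and CD79A at 0.036, with quantile normalization CD55 at 0.016, with cyclic loess normalization CD55 at 0.012 and CD79A at 0.0079, and with normexp and quantile normalization CD55 at 0.077 and CD83 at 0.0056. With 1 array left out the ranges were CD300E from -0.044 to 0.22, CD33 from -0.25 to 0.032, CD34 from -0.051 to 0.41, CD44 from -0.18 to 0.49, CD47 from -0.032 to 0.043, CD55 from -0.18 to 0.15, CD59 from -0.31 to 0.076, CD79A from -0.084 to 0.038, CD83 from -0.19 to 0.11 and CD9 from -0.38 to 0.061, and without a change of sign CD52 from 0.051 to 0.34, CD63 from -0.21 to -0.011, CD68 from -0.25 to -0.052, CD93 from 0.061 to 0.27 and CD99 from -0.19 to -0.018. Dim probes limit what can be read of CD101, CD48, CD34, CD59, CD69 and most T cell genes, and with dim probes left out 61 of the 68 genes remained.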
